A study of Mus musculus with 8 samples.

Results

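Hox genes encode homeodomain transcription factors that lie in 4 clusters, Hoxa, Hoxb, Hoxc and Hoxd, and carry a paralogue number from 1 to 13 that follows their order along each cluster. The members were all rows of the expression table whose symbol was Hox, a cluster letter and a number, which gave 39 genes of 18560 in all. RNA sequencing had been done on mouse tissue labelled dorsal root ganglia, the ganglia that hold the cell bodies of sensory neurons. The 4 libraries of one group carried the genotype label cKO_P60, which the design text ties to deletion of Alyref, and the 4 libraries of the other carried WT_P60, so that all 8 shared the label P60. Alyref encodes an adaptor for export of mRNA from the nucleus. The cell type or promoter that drives the deletion, and whether animals were pooled, are given neither in the labels nor in the files.

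Along the body axis Hox genes are used in the order of their numbers, a rule called collinearity. Low numbers mark the hindbrain and neck, middle numbers the brachial and thoracic trunk, and high numbers the lumbar, sacral and tail levels. Neurons and connective tissue cells keep much of this code in the adult, and the set of Hox transcripts differs between levels of the trunk. In the embryo the code gives spinal motor neurons and sensory neurons of each segment their identity.

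Totals of estimated counts were 15763458 to 16482614 in libraries labelled cKO and 15522915 to 16311155 in libraries labelled WT. Alyref stood at 51.9, 46.3, 49.9 and 48.7 TPM (the TPM unit is a level per transcript length) in libraries labelled cKO and at 49.8, 54.9, 47.9 and 54.5 TPM in libraries labelled WT. Alyref differed by −0.11 ± 0.097 on the log2 scale (SE; edgeR, adjusted p = 0.887), so the targeted gene did not separate the groups, which are named here by their labels. The summed level of 11 sensory neuron markers was 242.9 to 935.9 TPM in libraries labelled cKO and 297.5 to 3319 TPM in libraries labelled WT, where replicate 2 held the 3319. The summed level of 15 spinal cord and central nervous system markers was 2416 to 2764 TPM in libraries labelled cKO and 899.3 to 2933 TPM in libraries labelled WT, where replicate 2 held the 899.3. All 11 markers of the first list were highest, and all 15 of the second lowest, in WT replicate 2. No marker of either list was at 0 in any library, so the markers of the labelled ganglia were present throughout, beside those of the spinal cord. Schwann and satellite glia markers summed to 8615 to 14735 TPM, and skeletal muscle markers to 35.6 to 606.8 TPM. Both sums were highest in the replicate 4 libraries, at 14735 and 549.3 TPM (cKO) and at 14062 and 606.8 TPM (WT). Of 9 rostral brain markers 6 were in the table, and Otx1, Emx1 and Emx2, transcription factors of the forebrain, lay between 0 and 0.15 TPM, while Neurod6 lay between 2.73 and 5.82 TPM. WT replicate 2 stood apart from the other 7 libraries, and fold changes and medians that move most without it are also given without it. In bulk tissue, fewer cells of a type and less RNA per cell cannot be told apart.

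The Hox code of all 8 libraries was that of the trunk, with its peak at paralogues 8 to 10. Hoxb8, which acts in trunk patterning and in spinal circuits of the dorsal horn, had the highest level of the 39 genes. It stood at 145.7, 139.4, 141.2 and 129.4 TPM in libraries labelled cKO and at 152.8, 66.9, 110.9 and 135.7 TPM in libraries labelled WT. Hoxb8 exceeded the next gene in that order, Hoxd8, in all 8 libraries, and its mean over libraries was above that of 92.4% of all genes in the table. Hoxd8 averaged 98.3 ± 4.98 TPM in libraries labelled cKO and 80.02 ± 25.4 TPM in libraries labelled WT (SD, n = 4 each). Hoxc10, a lumbar gene of the spinal cord and hindlimb level, followed with 88.5, 77.5, 80.5 and 75.4 TPM in libraries labelled cKO and 82.0, 35.05, 80.7 and 79.1 TPM in libraries labelled WT. Hoxb9 and Hoxb6 came next, with means over the 8 libraries of 64.1 and 60.1 TPM, and Hoxb9 lay above Hoxb6 in 7 of the 8.

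Further down the order many neighbours could not be told apart. Hoxd10 and Hoxa10 averaged 46.0 ± 10.9 and 45.2 ± 7.09 TPM (SD over 8 libraries), and Hoxd9, Hoxc8 and Hoxa5 averaged 24.4 ± 5.15, 24.1 ± 10.2 and 23.3 ± 5.27 TPM. Hoxd9 exceeded Hoxc8 in 4 of the 8 libraries and Hoxc8 exceeded Hoxa5 in 5. Of the 39 genes, 35 had a mean of at least 1 TPM, 21 of at least 10 TPM and 5 of at least 50 TPM. The 4 below 1 TPM were Hoxb1, Hoxa13, Hoxd12 and Hoxd13, at the outer ends of their clusters. Hoxb1, a hindbrain gene, had 1 and 2 counts in single libraries and 0 in the other 6, where 3 counts, the limit that a count of 0 allows, correspond to 0.182 to 0.193 CPM. Such limits cover counting error only.

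**Figure D1:**
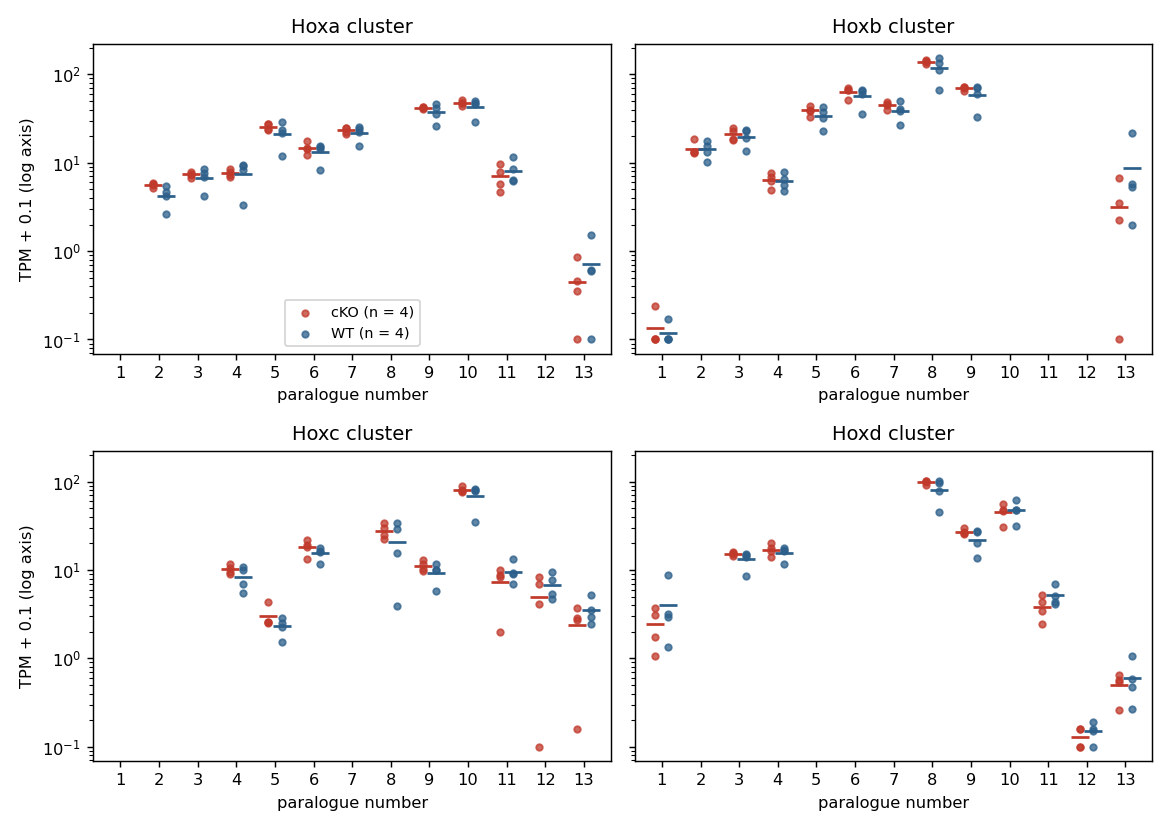
Level of Hox genes in each library, as TPM + 0.1 on a log axis, by paralogue number, with 1 panel per cluster. Points are libraries, red for the 4 labelled cKO and blue for the 4 labelled WT, and horizontal bars are group means. Levels climb towards paralogues 8 to 10 and drop from 11 onwards, and the groups overlap for every gene plotted.

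The homeobox, the stretch of 180 bases that encodes the DNA-binding homeodomain, is what all members share. Those of the most abundant gene and of 4 genes that set libraries apart are shown, since low counts of one member can be read only if its transcript is distinct from the others. Capitals mark the 24 bases that encode the core of the recognition helix. They were cut from GENCODE M21 transcripts (GRCm38), and all 5 lie within exon 2 of the transcript used, on the plus strand.
Hoxb8, chr11:96284174-96284353: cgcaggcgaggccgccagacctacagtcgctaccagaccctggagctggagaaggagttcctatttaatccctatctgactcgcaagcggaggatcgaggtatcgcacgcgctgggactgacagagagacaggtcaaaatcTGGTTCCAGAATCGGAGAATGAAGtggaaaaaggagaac
Hoxd10, chr2:74694141-74694320: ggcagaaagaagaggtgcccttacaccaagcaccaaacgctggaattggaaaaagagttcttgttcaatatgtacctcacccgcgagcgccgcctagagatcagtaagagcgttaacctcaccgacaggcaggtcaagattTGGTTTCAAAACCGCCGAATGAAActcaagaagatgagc
Hoxc12, chr15:102938308-102938487: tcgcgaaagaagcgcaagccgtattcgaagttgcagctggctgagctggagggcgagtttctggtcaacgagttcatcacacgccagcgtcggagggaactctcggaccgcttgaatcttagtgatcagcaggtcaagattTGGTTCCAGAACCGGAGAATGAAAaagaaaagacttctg
Hoxc13, chr15:102927210-102927389: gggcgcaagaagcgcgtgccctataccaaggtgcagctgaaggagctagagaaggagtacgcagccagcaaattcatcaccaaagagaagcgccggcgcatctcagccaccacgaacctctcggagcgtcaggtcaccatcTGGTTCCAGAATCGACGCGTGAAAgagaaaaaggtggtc
Hoxb13, chr11:96196020-96196199: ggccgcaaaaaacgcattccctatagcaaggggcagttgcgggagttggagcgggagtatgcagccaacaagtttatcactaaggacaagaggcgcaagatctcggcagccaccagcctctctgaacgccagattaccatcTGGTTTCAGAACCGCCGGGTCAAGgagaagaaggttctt

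Hoxc13 and Hoxb13, which share a paralogue number, had 73.9% of homeobox bases in common, against 51.7% between Hoxb8 and Hoxb13. Over all pairs of members the median was 80.6% for the 42 pairs with the same number and 60.6% for the 699 pairs with different numbers. Only the transcript used for each member was compared. Among these transcripts the longest run of identical bases shared by any 2 members was 52 bases (Hoxa6 and Hoxb4). For Hoxc12, Hoxb13 and Hoxd10 the longest run shared with any other member was 18, 17 and 20 bases. All estimated counts of Hox genes were whole numbers in the 8 libraries, while 10.3% to 10.99% of values over all genes were not. Exons of another annotated gene overlapped those of 16 members, on the opposite strand for 10, among them Hoxa11 with Hoxa11os and Hoxb5 with Hoxb5os. Reads of partners on the opposite strand could not be separated without a known strand setting. For 4 members the overlapping genes included another Hox gene, Hoxc5 with Hoxc10 and Hoxd3 with Hoxd4. Sequence shared by other annotated transcripts of these 4 is left out of the run lengths above. Whether their reads could be told apart was not tested.

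The shares that each paralogue number took of the summed Hox level gave an axial profile of each library that does not depend on how much Hox RNA it held. Paralogues 4 to 8 took 54.3%, 59.3%, 57.1% and 54.2% of the summed Hox TPM in libraries labelled cKO and 56.9%, 49.8%, 51.3% and 55.4% in libraries labelled WT. Paralogues 9 to 13 took 38.1%, 33.9%, 36.3% and 38.8% in libraries labelled cKO and 36.2%, 41.4%, 41.5% and 37.4% in libraries labelled WT. The low value belonged to cKO replicate 2, the high ones to WT replicates 2 and 3, and the groups overlapped. The axial index, the mean paralogue number weighted by TPM, was 7.67, 7.44, 7.59 and 7.69 in libraries labelled cKO and 7.59, 7.75, 7.74 and 7.61 in libraries labelled WT. The means were 7.59 ± 0.113 in libraries labelled cKO and 7.67 ± 0.0835 in libraries labelled WT (SD, n = 4 each), a difference of −0.0802 paralogue numbers that was smaller than the spread between libraries labelled cKO. Without replicate 2 of both groups the difference was −0.00103.

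**Figure D2:**
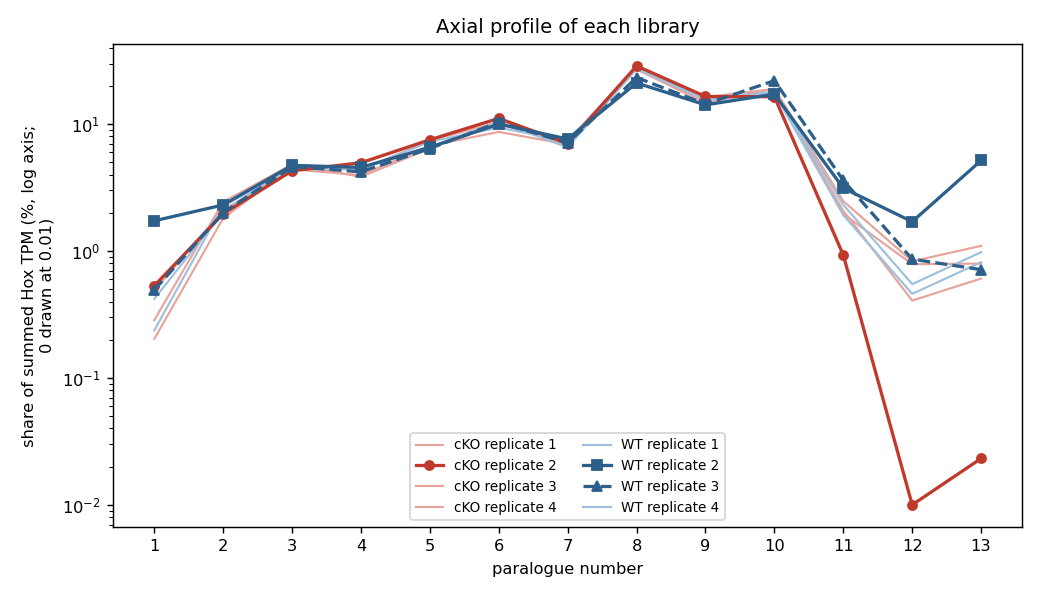
Share of the summed Hox TPM taken by each paralogue number, in percent on a log axis with 0 drawn at 0.01, with 1 line per library. The 8 lines run together from paralogue 2 to 10 and part at 11 to 13, where cKO replicate 2 (filled red circles) is lowest at 0.929%, 0% and 0.0232%, and WT replicate 2 (blue squares) is highest at paralogues 12 and 13 with 1.702% and 5.17%.

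The posterior end of the code was nearly missing from cKO replicate 2. Hoxc12, a gene of the sacral and tail levels, stood at 8.24, 0, 3.97 and 6.91 TPM in libraries labelled cKO and at 4.58, 9.26, 7.51 and 5.25 TPM in libraries labelled WT. Behind these values were 43, 0, 20 and 37 counts in libraries labelled cKO and 23, 59, 39 and 27 counts in libraries labelled WT. The 7 libraries other than cKO replicate 2 held at least 6.65-fold more Hoxc12 than 3 counts in that library would give.

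Hoxc13, which also acts in hair and nail formation, stood at 3.64, 0.06, 2.65 and 2.76 TPM in libraries labelled cKO and at 2.34, 5.12, 3.45 and 2.84 TPM in libraries labelled WT. The 0.06 TPM rested on 1 count. Hoxb13, a gene of the tail bud and hindgut region, stood at 6.54, 0, 2.16 and 3.41 TPM in libraries labelled cKO and at 5.21, 21.4, 1.85 and 5.66 TPM in libraries labelled WT. It had 0 counts in cKO replicate 2, where 3 counts would be 0.189 CPM, and 223 counts in WT replicate 2. Summed over paralogues 12 and 13 there were 175, 4, 98 and 128 counts in libraries labelled cKO and 113, 417, 135 and 135 counts in libraries labelled WT.

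The lumbar and sacral paralogues 11 were lowest in the same library without being absent from it. Hoxc11 stood at 9.93, 1.88, 8.59 and 8.27 TPM in libraries labelled cKO and at 9.03, 6.78, 13.1 and 8.83 TPM in libraries labelled WT. Hoxd11, which acts in limb and kidney patterning, stood at 5.13, 2.34, 4.23 and 3.32 TPM in libraries labelled cKO and at 4.00, 4.29, 6.89 and 5.01 TPM in libraries labelled WT. Hoxa11, its partner in these organs, stood at 9.62, 4.59, 7.73 and 5.62 TPM in libraries labelled cKO and at 6.31, 6.11, 11.6 and 8.29 TPM in libraries labelled WT. All 3 were lowest in cKO replicate 2 and highest in WT replicate 3, and for each the groups overlapped.

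Hoxd10, which helps to specify lumbar motor neurons, was also lowest in cKO replicate 2. It stood at 55.1, 30.5, 46.0 and 47.4 TPM in libraries labelled cKO and at 47.8, 31.1, 62.5 and 47.5 TPM in libraries labelled WT. Its neighbour Hoxd9 stood at 25.1, 29.7, 26.0 and 26.5 TPM in libraries labelled cKO and at 26.7, 13.4, 20.3 and 27.2 TPM in libraries labelled WT. The ratio of Hoxd10 to Hoxd9, taken within each library, was 2.19, 1.03, 1.77 and 1.79 in libraries labelled cKO and 1.79, 2.32, 3.07 and 1.75 in libraries labelled WT. By the Hoxd ratio cKO replicate 2 was lowest and WT replicate 3 highest, the order seen for paralogues 11. The ratio of Hoxa10 to Hoxa9 was 1.15, 1.16, 1.19 and 1.02 in libraries labelled cKO and 1.04, 1.08, 1.38 and 1.11 in libraries labelled WT, where WT replicate 3 was again highest and cKO replicate 2 was not lowest. The ratio of Hoxc10 to Hoxc9 was 8.80, 6.06, 6.97 and 7.91 in libraries labelled cKO and 7.17, 6.18, 8.21 and 8.02 in libraries labelled WT, where cKO replicate 2 was lowest and cKO replicate 1 highest.

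**Figure D3:**
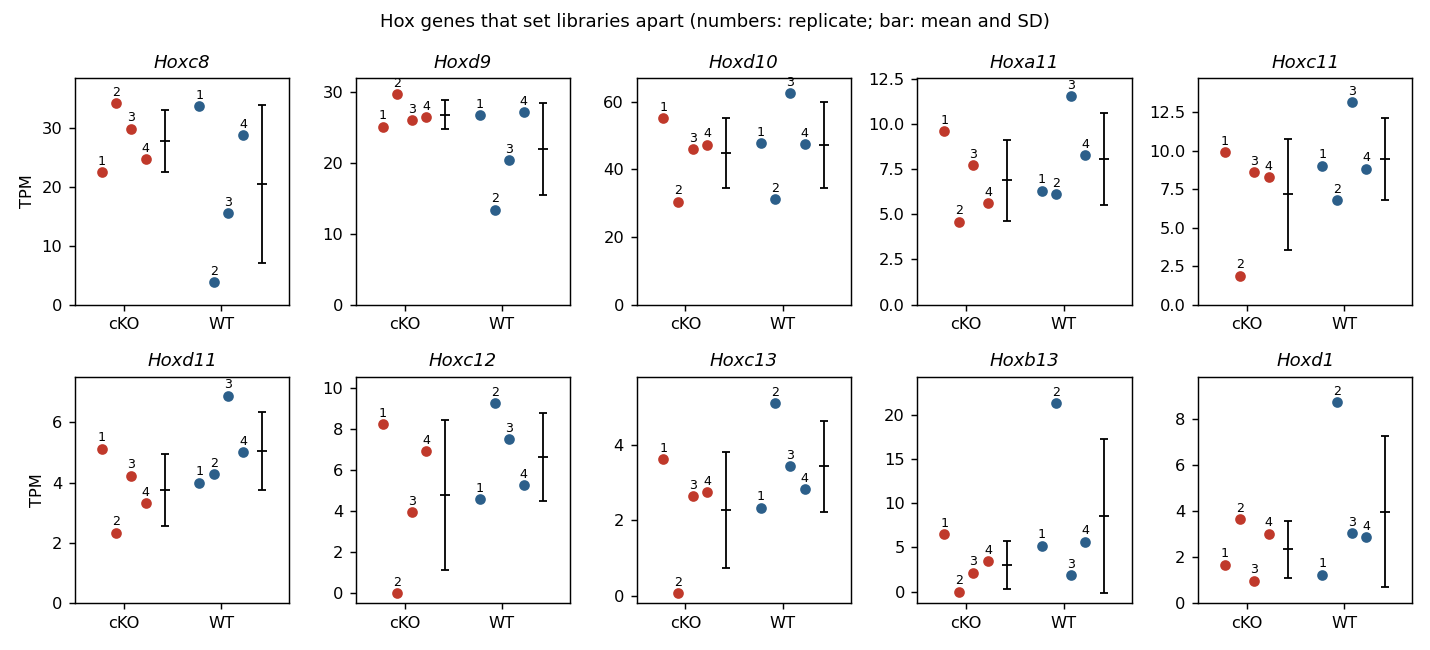
TPM of 10 Hox genes in each library, 1 panel per gene with its own axis. Points are libraries with their replicate numbers, red for cKO on the left and blue for WT on the right, and black bars give the mean and SD of 4. Replicate 2 labelled cKO is lowest for Hoxd10, the paralogues 11, Hoxc12, Hoxc13 and Hoxb13, and replicate 2 labelled WT is lowest for Hoxc8 and Hoxd9 and highest for Hoxc12, Hoxc13, Hoxb13 and Hoxd1.

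Counted over members, cKO replicate 2 held the lowest TPM of the 8 libraries for 7 of the 9 paralogues 11 to 13 and for 1 of the 7 paralogues 9 and 10, and for 0 of the 23 members below 9. How often this library was lowest over all tested genes was not counted. It held the highest TPM for 10 members, Hoxa6, Hoxb1, Hoxb9, Hoxc4, Hoxc5, Hoxc6, Hoxc8, Hoxc9, Hoxd4 and Hoxd9. Among the members counted as lowest or highest, Hoxd13 and Hoxb1 had means below 1 TPM, and Hoxb1 had 2 counts in cKO replicate 2. Hoxc5 had its highest level there, at 4.20 TPM against 1.45 to 2.75 TPM in the other 7 libraries. Hoxc6, a brachial gene, had 21.7 TPM there against 11.4 to 18.9 TPM. WT replicate 3 held the highest TPM for 4 of the 9 paralogues 11 to 13 and for Hoxd10. The sensory neuron marker sums of cKO replicate 2 and WT replicate 3 were 935.9 and 1054 TPM and their spinal cord sums 2640 and 2156 TPM. Their part in the posterior Hox levels was not tested.

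To show where the neighbours Hoxd9, Hoxd10 and Hoxd11 differ in sequence, the 250 bases before their RefSeq starts (GRCm38.p6, chromosome 2, plus strand) are given, with capitals for matches to CCAAT, TGATTNAT or TTTATG on either strand.
Hoxd11, chr2:74682073-74682322: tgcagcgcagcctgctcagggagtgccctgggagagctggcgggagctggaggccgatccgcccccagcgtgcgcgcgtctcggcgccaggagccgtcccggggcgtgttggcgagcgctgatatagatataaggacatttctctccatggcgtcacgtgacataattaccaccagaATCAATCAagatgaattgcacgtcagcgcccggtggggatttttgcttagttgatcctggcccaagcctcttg
Hoxd10, chr2:74691641-74691890: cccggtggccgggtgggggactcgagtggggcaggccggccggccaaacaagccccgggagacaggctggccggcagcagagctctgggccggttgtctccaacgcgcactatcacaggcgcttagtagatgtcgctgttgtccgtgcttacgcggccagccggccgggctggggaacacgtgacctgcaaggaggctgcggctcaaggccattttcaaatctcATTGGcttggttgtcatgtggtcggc
Hoxd9, chr2:74697513-74697762: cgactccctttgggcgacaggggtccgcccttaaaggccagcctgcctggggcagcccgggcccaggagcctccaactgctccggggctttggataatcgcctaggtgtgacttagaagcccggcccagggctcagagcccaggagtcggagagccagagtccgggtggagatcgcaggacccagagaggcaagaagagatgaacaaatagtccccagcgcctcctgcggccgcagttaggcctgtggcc

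RefSeq promoter windows matched 22 of the 39 members, with 24 windows in all, and Hoxd11 has a second window farther from Hoxd10. TGATTNAT, the letters of a Hox site shared with the cofactor Pbx, was in 2 of the 24 windows (8.33%) and in 2.82% of all 32851 windows of that length. CCAAT was in 58.3% of the Hox windows and 33.8% of all, and TTTATG, the letters of a site for Cdx factors, in 20.8% and 10.8%. None of these letters overlapped in the 3 windows shown, and a match describes sequence and not binding. Hox windows held a median of 12.5 CG dinucleotides against 6 over all windows.

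WT replicate 2 differed from the rest in the opposite way at the posterior end and in its total. Summed Hox TPM was 999.3, 948.4, 990.6 and 878.5 in libraries labelled cKO and 1009, 549.3, 876.5 and 957.8 in libraries labelled WT. Summed as CPM (counts scaled to the library total), which are not scaled by transcript length, it was 821.7 to 942.1 in libraries labelled cKO and 604.8 to 935.4 in libraries labelled WT, again lowest in WT replicate 2. The TPM scale itself was lower in that library, by a median of −0.14 on the log2(TPM + 1) scale over all tested genes against the mean of the other 7 libraries, while the shift in TMM-scaled log2 CPM was 0.00. WT replicate 2 held the lowest TPM for 27 of 39 members, 24 by CPM. These included all 15 paralogues 4 to 8 by TPM and 12 of 15 by CPM. The share of all tested genes that were lowest in this library was not counted. WT replicate 2 held the highest value, by TPM and by CPM, for 6 members, Hoxd1, Hoxd12, Hoxa13, Hoxb13, Hoxc12 and Hoxc13. Among these, Hoxd12 and Hoxa13 had means below 1 TPM over the libraries, so their place rests on few counts.

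Within WT replicate 2 the Hoxc cluster held genes at both extremes of the 8 libraries. Hoxc8, a gene of the brachial and thoracic trunk, stood at 22.5, 34.2, 29.9 and 24.6 TPM in libraries labelled cKO and at 33.7, 3.86, 15.4 and 28.7 TPM in libraries labelled WT. The ratio of Hoxc8 to Hoxc10 was 0.254, 0.441, 0.371 and 0.326 in libraries labelled cKO and 0.411, 0.110, 0.191 and 0.363 in libraries labelled WT. WT replicates 2 and 3, which were lowest for Hoxc8, were highest for the sum of sensory neuron markers (3319 and 1054 TPM), while cKO replicate 2, next in that sum with 935.9 TPM, was highest for Hoxc8. The sum of spinal cord and central nervous system markers was lowest in WT replicate 2 (899.3 TPM), then WT replicate 3 (2156 TPM) and cKO replicate 1 (2416 TPM). Hoxc8 had the same order in these libraries. That sum was highest in WT replicate 4 (2933 TPM), and stood at 2640 TPM in cKO replicate 2. That markers of either list had a part in the Hoxc8 level was not tested.

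Hoxd1 was highest in WT replicate 2, where Hoxd3, Hoxd4, Hoxd8 and Hoxd9 were lowest. In mice Hoxd1 acts in pain-sensing neurons of the dorsal root ganglion, where it shapes their axons. It stood at 1.66, 3.65, 0.97 and 3.01 TPM in libraries labelled cKO and at 1.23, 8.72, 3.04 and 2.87 TPM in libraries labelled WT. The sensory neuron marker sums of the same libraries were 568.0, 935.9, 242.9 and 668.8 TPM in those labelled cKO and 297.5, 3319, 1054 and 413.2 TPM in those labelled WT. Both measures were lowest in cKO replicate 3, next in WT replicate 1 and highest in WT replicate 2. The log2 fold change of Hoxd1 was −0.85 ± 0.64 (SE) with all libraries and −0.01 without WT replicate 2. The part of the sensory neuron markers in this was not tested.

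No Hox gene passed the test between libraries labelled cKO and WT. After removal of genes with low counts 35 members were tested, all but Hoxa13, Hoxb1, Hoxd12 and Hoxd13, and 0 had an adjusted p below 0.05 by edgeR, as for 0% of all 15098 tested genes. At an unadjusted p below 0.05 there were 0 of 35 by edgeR, 0 of 39 by DESeq2 and 0 of 35 by limma on TPM, while 1.65% of all tested genes had one by edgeR, 0.397% with higher and 1.25% with lower levels in libraries labelled cKO. Leaving out 1 library moved these counts. Without WT replicate 1 there were 3 of 36 Hox genes, Hoxa2, Hoxb5 and Hoxb7, all positive, beside 5.39% of all tested genes by edgeR. Without cKO replicate 1 there was 1 of 35, Hoxd11, negative, beside 1.08%. In both fits 0 Hox genes passed the adjusted threshold. The TPM ranges of the groups overlapped for all 39 members, and they did not overlap for 1.41% of all tested genes. The sign of the fold change was positive for 26 of 35 members and for 48.5% of all tested genes, with medians of 0.13 and 0.00 on the log2 scale. Without WT replicate 2 it was positive for 20 of 35 members and 50.1% of tested genes, with a median over members of 0.01. It was positive for 27 of 36 members and 48.3% of tested genes without cKO replicate 2, and for 17 of 35 members and 49.5% of tested genes without replicate 2 of both groups. Members passing the adjusted threshold numbered 0 in each of these fits, as against 0.00661% of tested genes without WT replicate 2, 0% without cKO replicate 2 and 0.00664% without both.

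Signs differed by paralogue number, and less so without replicate 2 of both groups. For paralogues 4 to 8 the fold change was positive for 15 of 15 tested members with all libraries, for 14 without cKO replicate 2, for 11 without WT replicate 2 and for 7 without both, with medians of 0.20, 0.14, 0.07 and −0.01. The 15 spinal cord and central nervous system markers were also positive for 15 of 15 with all libraries (median 0.20) and for 8 of 15 without WT replicate 2 (median 0.00), and their part in the Hox signs was not tested. For paralogues 11 to 13 it was negative for 6 of 6 with all libraries, for 6 of 6 without WT replicate 2, for 7 of 7 without cKO replicate 2 and for 4 of 6 without both, with medians of −0.49, −0.39, −0.11 and −0.12. None of these genes passed the test in any of these fits (edgeR).

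**Figure D4:**
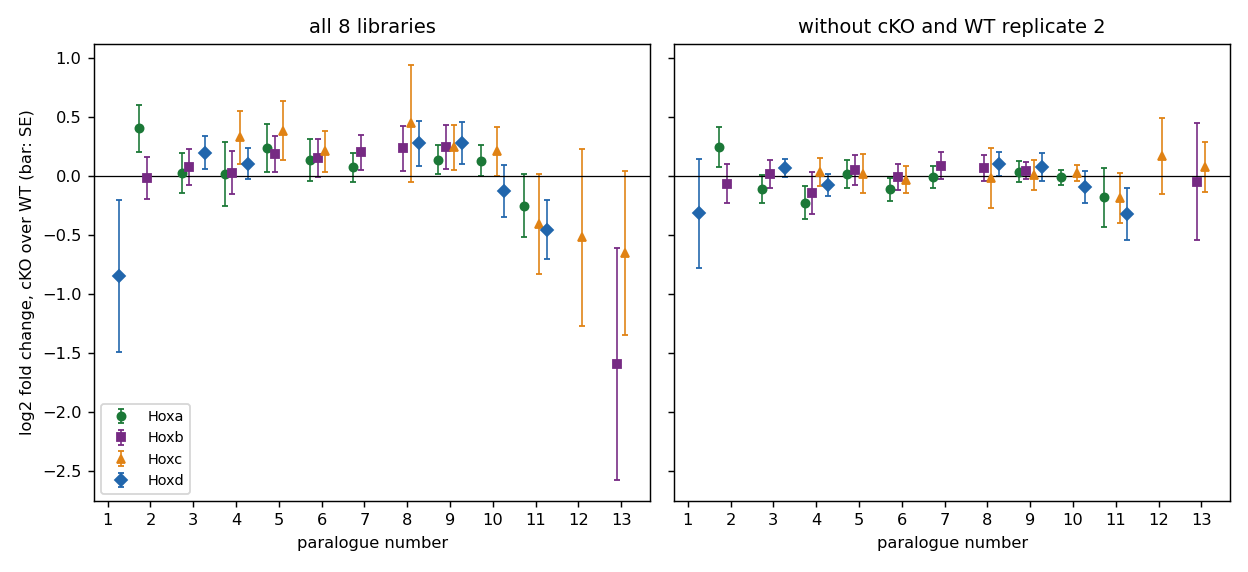
Log2 fold change of tested Hox genes, cKO over WT, by paralogue number, with SE bars and 1 colour and symbol per cluster. With all 8 libraries (left) the paralogues 11 to 13 lie below 0 and the paralogues 4 to 8 above, and without replicate 2 of both groups (right) 7 of 15 paralogues 4 to 8 lie above 0, the paralogues 11 lie below and Hoxc12 and Hoxc13 lie above.

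Among anterior members Hoxa2, a hindbrain gene that controls the identity of the second branchial arch, had the lowest unadjusted p of all members. It stood at 5.80, 5.64, 5.07 and 5.48 TPM in libraries labelled cKO and at 5.32, 2.55, 4.55 and 4.06 TPM in libraries labelled WT. Only WT replicate 1 reached the range of the libraries labelled cKO. Between groups it differed by 0.40 ± 0.20 on the log2 scale (SE), with a 95% interval from −0.05 to 0.86 (unadjusted p = 0.077, adjusted p = 0.887, edgeR). Without WT replicate 2, the lowest library, the fold change was 0.26 (unadjusted p = 0.124, edgeR), and without replicate 2 of both groups it was 0.24.

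Hoxb2, which acts in the hindbrain, stood at 18.53, 13, 12.91 and 13.05 TPM in libraries labelled cKO and at 17.64, 10.12, 12.98 and 15.42 TPM in libraries labelled WT, a log2 fold change of −0.02 ± 0.18 (SE). Hoxb3, a neighbour at the same end of the cluster, stood at 24.4, 18.3, 22.7 and 17.9 TPM in libraries labelled cKO and at 22.7, 13.4, 19.0 and 23.1 TPM in libraries labelled WT, a log2 fold change of 0.07 ± 0.15 (SE). For both, the ranges of the groups overlapped.

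For Hoxb8 and Hoxb9 the intervals limited the size of any difference. Hoxb8 had a log2 fold change of 0.23 ± 0.19 (SE; 95% interval −0.20 to 0.66) and Hoxb9 of 0.24 ± 0.19 (95% interval −0.18 to 0.67), with adjusted p = 0.887 for each (edgeR). Hoxb9, a thoracic gene, stood at 70.4, 72.6, 71.0 and 64.8 TPM in libraries labelled cKO and at 71.72, 32.53, 60.02 and 69.38 TPM in libraries labelled WT. WT replicate 2 alone lay far below, and without it the fold changes of Hoxb8 and Hoxb9 were 0.07 each. Hoxc8 had a wider interval, with a log2 fold change of 0.45 ± 0.50 (SE; 95% interval −0.68 to 1.58), and 0.11 without WT replicate 2.

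Hoxb5, Hoxb6 and Hoxb7, genes of the cervical and brachial trunk, were each lowest in WT replicate 2. Hoxb5 stood at 38.7, 39.9, 43.9 and 33.2 TPM in libraries labelled cKO and at 42.8, 22.9, 32.3 and 37.1 TPM in libraries labelled WT. Hoxb6 stood at 67.3, 66.2, 70.0 and 50.8 TPM in libraries labelled cKO and at 64.2, 35.4, 59.9 and 67.03 TPM in libraries labelled WT. For both genes the other 3 WT libraries lay at or near the levels of libraries labelled cKO. Hoxb7 stood at 45.98, 44.52, 49.04 and 39.61 TPM in libraries labelled cKO and at 49.4, 26.7, 40.1 and 38.8 TPM in libraries labelled WT. The log2 fold changes were 0.19, 0.15 and 0.20, with SE of 0.15, 0.16 and 0.15, and were 0.07, 0.01 and 0.08 without WT replicate 2.

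Hoxd4, the highest of its paralogue group, stood at 16.2, 20.2, 17.6 and 13.8 TPM in libraries labelled cKO and at 16.46, 11.68, 16.54 and 17.40 TPM in libraries labelled WT, a log2 fold change of 0.10 ± 0.13 (SE), and of 0.03 without WT replicate 2. Hoxc5 stood at 2.48, 4.20, 2.43 and 2.46 TPM in libraries labelled cKO and at 2.16, 1.45, 2.43 and 2.75 TPM in libraries labelled WT. Its log2 fold change was 0.38 ± 0.25 (SE) with all libraries and 0.14 without cKO replicate 2, whose 4.20 TPM stood above the rest. Hoxd9 had a log2 fold change of 0.28 ± 0.18 (SE) with all libraries and 0.13 without WT replicate 2. Hoxc10 had one of 0.21 ± 0.21 (SE) with all libraries and 0.01 without WT replicate 2.

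At the posterior end the intervals were wide. Hoxd11 had the lowest unadjusted p among members with a negative sign, with a log2 fold change of −0.46 ± 0.25 (SE; 95% interval −1.02 to 0.11; unadjusted p = 0.103, adjusted p = 0.887, edgeR), and −0.29 without cKO replicate 2. Hoxc11 had −0.41 ± 0.42 (SE), and −0.10 without cKO replicate 2. Hoxb13 had −1.59 ± 0.98 (SE; 95% interval −3.83 to 0.64), −0.46 without WT replicate 2 and −0.05 without replicate 2 of both groups. Hoxc12 had −0.52 ± 0.75 (SE) with all libraries and −0.11 without cKO replicate 2, and its sign turned to 0.17 without replicate 2 of both groups. A library at 0 counts, cKO replicate 2, enters the fits of Hoxb13 and Hoxc12 with all libraries. DESeq2 gave log2 fold changes of −1.589 and −0.515 for these genes with all libraries, close to those by edgeR.

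Hox proteins bind DNA together with TALE homeodomain proteins of the Pbx, Meis and Pknox families, and all 9 of their genes were tested. Of these 5 had a positive and 4 a negative log2 fold change (median 0.08), and 0 passed by edgeR. At an unadjusted p below 0.05 stood 1.65% of all tested genes and 1 of these 9 (edgeR). That gene was Pbx2, at 25.7, 24.2, 25.4 and 24.7 TPM in libraries labelled cKO and 27.2, 26.2, 26.8 and 28.9 TPM in libraries labelled WT. The ranges did not overlap, as for 1.41% of all tested genes, and the log2 fold change was −0.16 (unadjusted p = 0.023, adjusted p = 0.887, edgeR). Meis1 averaged 16.2 ± 1.35 TPM in libraries labelled cKO and 14.7 ± 3.15 TPM in libraries labelled WT, and Pbx4 averaged 9.89 ± 1.53 TPM in libraries labelled cKO and 8.66 ± 1.76 TPM in libraries labelled WT (SD, n = 4 each). WT replicate 2 was lowest for both, as for most Hox genes. Without it the TALE median was 0.00, with 4 positive and 5 negative signs, and the unadjusted p of Pbx2 was 0.0366 (edgeR). The lowest unadjusted p of the TALE genes was 0.0605 without cKO replicate 2 and 0.0811 without replicate 2 of both groups (edgeR). With the replicate block 0 TALE genes had an unadjusted p below 0.05.

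Retinoic acid and Cdx factors set up Hox expression in the embryo. Of the 19 genes of this list that had values, 15 were tested, 6 with a positive and 9 with a negative sign (median −0.19), and 0 passed. An unadjusted p below 0.05 was reached by 1 of the 15, beside 1.65% of all tested genes (edgeR). Cyp26b1, which breaks down retinoic acid, averaged 1.26 ± 0.201 TPM in libraries labelled cKO and 1.81 ± 0.501 TPM in libraries labelled WT (log2 fold change −0.63, unadjusted p = 0.0357, adjusted p = 0.887, edgeR). Crabp2, a retinoic acid carrier, averaged 12.4 ± 3.002 TPM in libraries labelled cKO and 23.0 ± 12.6 TPM in libraries labelled WT. Rarg, a retinoic acid receptor, averaged 6.78 ± 0.855 TPM in libraries labelled cKO and 10.6 ± 5.14 TPM in libraries labelled WT (SD, n = 4 each). All 3 were highest in WT replicate 2, where the summed level of 6 fibroblast markers was also highest, at 2110 TPM against 416.4 to 895.8 TPM in the other 7 libraries. Dcn made up 1504 TPM of that sum, and 5 of the 6 markers were highest in WT replicate 2 while Pdgfra was lowest there. The sensory neuron marker sum was also highest in WT replicate 2, at 3319 TPM against 242.9 to 1054 TPM in the other 7 libraries. Of 7 Schwann and satellite glia markers, 5 were highest and 1 lowest in that library. The part of the markers of any of these lists was not tested. Without WT replicate 2 the median of the retinoid list was −0.04 and its lowest unadjusted p was 0.0775 (edgeR).

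Polycomb proteins keep Hox genes silent outside their domain and Trithorax proteins keep them active. All 28 Polycomb genes were tested, 10 with a positive and 18 with a negative sign (median −0.04), and all 10 genes of the Trithorax and demethylase list, 5 and 5 (median −0.01). In both lists 0 passed and 0 had an unadjusted p below 0.05 by edgeR. Without WT replicate 2 the lowest unadjusted p was 0.0274 for the 28 Polycomb and 0.0285 for the 10 Trithorax and demethylase genes (edgeR). The lowest adjusted p in that fit was 0.999697 for each list, and 293 of 15119 tested genes had an unadjusted p below 0.05 (edgeR). Phf19 averaged 1.01 ± 0.301 TPM in libraries labelled cKO and 1.51 ± 0.280 TPM in libraries labelled WT, and Ezh2, a methyltransferase of Polycomb complex PRC2, averaged 7.02 ± 0.877 TPM in libraries labelled cKO and 8.70 ± 1.95 TPM in libraries labelled WT (SD, n = 4 each). Both were highest in WT replicate 2. Rbbp5, of the Trithorax complexes, averaged 42.3 ± 1.17 TPM in libraries labelled cKO and 37.8 ± 5.76 TPM in libraries labelled WT.

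The 17 genes in the table, of 18 listed, that flank the clusters had 6 positive and 11 negative signs (median −0.03, and 10 positive and 7 negative without WT replicate 2), and 0 passed or had an unadjusted p below 0.05 by edgeR. Ttll6, beside the Hoxb cluster, averaged 2.10 ± 0.234 TPM in libraries labelled cKO and 3.14 ± 2.05 TPM in libraries labelled WT, and was highest in WT replicate 2. Of 11 motor column genes 6 were positive and 5 negative (median 0.17, and 0.06 without WT replicate 2), and 0 passed or had an unadjusted p below 0.05 by edgeR. Isl1 and Isl2, factors of motor neurons and of sensory neurons alike, were highest in WT replicate 2, at 26.4 and 61.4 TPM, as was Foxp1. Other genes of the list went the other way. Slc18a3 was lowest in WT replicate 2, at 8.47 TPM against 26.8 to 38.6 TPM in the other 7 libraries. Lhx4 was lowest there too, at 0.50 against 2.19 to 3.04 TPM, as were Chat, Slc5a7, Nos1, Mecom and Mnx1. Lhx3 was lowest in cKO replicate 2. Mnx1, a motor neuron factor, averaged 1.59 ± 0.528 TPM in libraries labelled cKO and 1.14 ± 0.409 TPM in libraries labelled WT (SD, n = 4 each). Antisense and long noncoding transcripts of the clusters were not analysed here.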

How the data were processed

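The members and gene lists were chosen with earlier results of these data known. The authors deposited estimated counts per gene without scaling for depth, and TPM values made by them, per the file headers. HISAT2 2.2.1, Bowtie2 2.4.5, RSEM 1.3.1 and GRCm38 are named in the submitters' processing notes without roles. The value columns call the WT group Ctrl. Another 16 value columns of the same libraries, FPKM and scaled counts, were not used. Counts, once rounded to integers, were tested over the whole table with edgeR 4.0.16 (filterByExpr by group, TMM, quasi-likelihood test, group as only term), with Benjamini-Hochberg adjustment over 15098 genes and a threshold of 0.05. Fold changes compare cKO with WT. Each SE is the fold change divided by the root of its F statistic. DESeq2 1.42.0 and limma 3.58.1 on log2(TPM + 1) were alternatives, beside other scaling, no filter, a replicate block and each library left out. The test was checked on simulated counts. Scores over members got no test. Single values of 1 Hox gene and 1 marker are not reported here, and both stay in counts and sums. Text names, with values in each library, the highest gene of each paralogue number and the 3 of lowest p in each direction, and up to 3 genes per other list. Other genes were named after their values were seen. Labels do not say whether libraries came from separate animals beyond the design text's biological replicates, nor which of the 4 sequencing rounds each belonged to, so no batch could be tested. Chi-square per degree of freedom between pairs of libraries was 3.64 to 112.3, so no library was a copy of another.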

Additional observations from a re-analysis of the deposited data

Results flagged for a closer look

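In a group of 4 libraries, 1 library was taken as far from the others where its gap to the nearest, as a share of the group's range, exceeded Dixon's critical value. Of 82 groups of values with any spread, 8 were picked out, and chance picks out about 1 in 20 groups. WT replicate 2 was low for Hoxa6 (8.14 TPM against 14.2 to 15.4 TPM in the other WT libraries), Hoxa10 (28.4 against 46.6 to 49.6 TPM), Hoxc10 (35.05 against 79.1 to 82.0 TPM) and Hoxd4 (11.7 against 16.46 to 17.40 TPM). Replicate 2 labelled cKO was high for Hoxc5, at 4.20 TPM against 2.43 to 2.48 TPM in the other libraries with that label. Replicate 1 labelled cKO was high for Hoxb2, at 18.5 TPM against 12.9 to 13.1 TPM. Hoxb1 was picked out at 0.14 TPM in cKO replicate 2 and 0.07 TPM in WT replicate 3, which rest on 2 counts and 1 count, with 0 in the others of each group. Where all others are at 0, the rule picks out any value above 0, so the Hoxb1 picks carry no information.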

How the results depend on the processing

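No Hox gene and no gene of the other lists had an adjusted p below 0.05 under any alternative, and adjusted p-values of the 17 named Hox genes ran from 0.631 to 0.999998 over them. Of all tested genes, 0 passed by edgeR and 1 by DESeq2, 1 without WT replicate 2 and 1 without replicate 2 of both groups, a setting chosen after seeing the data. Leaving out each library gave 0 to 1. The axial index difference was −0.23 for Hoxc genes alone. The Hoxb2 fold change was 0.042 by limma. Without replicate 2 of both groups, the log2 fold changes of Hoxd4 and Hoxb6 were −0.077 and −0.011, and that of Hoxc12 was 0.17. The causes were not tested. With single libraries left out, the log2 fold change of Hoxb2 ran from −0.14 to 0.10 and that of Hoxb3 from −0.036 to 0.15, the median over Hox genes from 0.01 to 0.18, the axial index difference from −0.111 to −0.0277, the posterior share difference from −3.34 to −1.40 percentage points, and the log2 ratio of summed Hox TPM from 0.01 to 0.26. Correlations of deviations between libraries of the same replicate number were 0.0078, 0.045, −0.037 and 0.25 for replicates 1 to 4. Only for replicate 4 was the library of the same number the best match. With the replicate block 0 genes passed and the median over Hox genes was 0.14. The 4 untested Hox genes had low counts. Genes at an unadjusted p below 0.05 numbered 131 to 820 over the fits with 1 library left out.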
